A study of Mus musculus with 9 samples.

Results

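The mesenchyme of the thymus was compared with that of 2 other tissues by RNA sequencing of sorted cells, and the genes described here are those that set the thymus apart from both. The 3 thymus libraries were set against the mean of the 3 bone libraries and the 3 skin libraries, and a gene was kept where it went the same way against each tissue. All 9 libraries of the series entered the fit. A gene is called apart where it passed at an adjusted p under 0.05 against that mean, against bone and against skin, with at least a 2-fold difference in the same direction from each tissue. By that rule 1232 of 15635 genes tested stood apart in thymus, 633 of them higher (4.05%) and 599 lower (3.83%).

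Mesenchymal cells form the capsule and septa of the thymus and ensheathe its vessels, and together with the epithelium they make up the stroma in which T cells develop. They are known to supply growth factors to the epithelium, and they share with the reticular fibroblasts of lymph nodes the secretion of chemokines, cytokines and matrix. Part of the thymic mesenchyme descends from the cranial neural crest of the pharyngeal arches, whereas the mesenchyme of limb bones and of the trunk dermis comes from mesoderm. SCA1, the product of Ly6a, is a surface antigen carried by many mesenchymal progenitors.

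All samples were total RNA of cells sorted by flow cytometry from C57BL/6 mice aged 3 to 4 weeks, with no transgene or treatment named in the labels. The sorted fraction carried SCA1 on its surface and lacked CD31 and EpCAM, which mark endothelium and epithelium, the blood cell antigen CD45, CD2 and CD4 of T cells, B220 of B cells, CD11b and GR-1 of myeloid cells, and CD41 and TER119 of platelets and red cells, and at least 25000 cells were taken per sample. The 3 groups were thymus, bone (femur, tibia and pelvis) and skin (dermis of abdomen and back). The thymus libraries carry the numbers 2, 3 and 1-3, and no source at hand explains the label 1-3. The labels do not say that libraries of one tissue came from separate animals, so the p-values measure the spread between these libraries only. Thymus and bone were both digested with Liberase and DNase, the bone for longer and with a crushing step, and the skin protocol is incomplete in the labels. Tissue and preparation therefore cannot be told apart.

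The libraries held 78757872 to 116759235 reads assigned to genes. The 10 most abundant genes took 14.1% to 33.7% of these reads, with the 3 thymus libraries lowest and the 3 skin libraries highest. Levels are given as gene reads scaled to a common library total (CPM) after trimmed mean of M-values (TMM) scaling, in the order thymus 2, thymus 3, thymus 1-3, and as mean ± SD of 3 libraries. Ly6a, which encodes the antigen used in the sort, was at 377, 427 and 476 CPM in thymus, 327, 240.1 and 273 CPM in bone and 669, 794 and 1381 CPM in skin. Thymus lay between the other tissues, and the difference from their mean did not pass (adjusted p = 0.38, edgeR quasi-likelihood test).

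The labelled cell type was checked against marker lists. Pdgfra, a receptor that defines fibroblasts, was at 1202, 1149 and 1129 CPM in the thymus libraries, and Pdgfrb, which marks pericytes and other perivascular cells, at 823, 729 and 717 CPM. The sort was designed to remove blood, epithelial and endothelial cells. The 17 thymocyte markers summed to 119 to 302 CPM in thymus, 45.5 to 86.2 CPM in bone and 6.08 to 11.8 CPM in skin, and 10 of them stood higher in thymus. Cd4, whose product the sort selected against, was among the 10, at 8.37, 25.8 and 20.4 CPM in thymus. Of 9 sort targets tested, Cd4 alone stood higher and Itga2b and Itgam stood lower. The 12 mesothelial markers tested summed to 127 to 253 CPM in thymus, against 5.93 to 9.29 CPM in bone and 16.9 to 23.4 CPM in skin, and 6 stood higher. For both lists thymus 3 was the highest library and thymus 2 the lowest. The 13 thymic epithelial markers tested summed to 15.3 to 24.4 CPM in thymus, 5.85 to 8.83 CPM in bone and 22 to 70.2 CPM in skin. In 2 of 3 thymus libraries the sum was below that of every skin library. The list shares Krt5 and Krt14 with the keratinocyte markers, which summed to 155 to 476 CPM in skin and 26.1 to 34.2 CPM in thymus. Foxn1, which defines the thymic epithelium, was at 0, 0.192 and 0.196 CPM in thymus. Aire and Krt8 stood higher (15.4% of the epithelial list, against 4.05% of all genes), and the list median log2 fold change was 1.34. Myeloid and B lineage markers were highest in bone. The 18 myeloid and dendritic markers summed to 3060 to 4190 CPM in bone and 48.4 to 109 CPM in skin, against 20.3 to 59.6 CPM in thymus, and 3 of them (Csf1r, Itgam and Cd14) stood lower in thymus, the call of Cd14 being lost under library size scaling and on RPKM. The 11 B lineage markers summed to 127 to 177 CPM in bone, 10.3 to 15.9 CPM in thymus and 0.791 to 2.43 CPM in skin, and 1 stood lower. The 14 vascular endothelial markers summed to 152 to 256 CPM in thymus, 104 to 118 CPM in bone and 269 to 367 CPM in skin, and Plvap and Emcn stood higher. The 16 pericyte and smooth muscle markers summed to 2220 to 2660 CPM in thymus, 743 to 794 CPM in bone and 485 to 604 CPM in skin. Without thymus 3, 552 genes were higher and 574 lower in thymus. What part such cells had in the values below was not tested, and in bulk samples fewer cells of a type and less RNA per cell cannot be told apart.

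**Figure D1:**
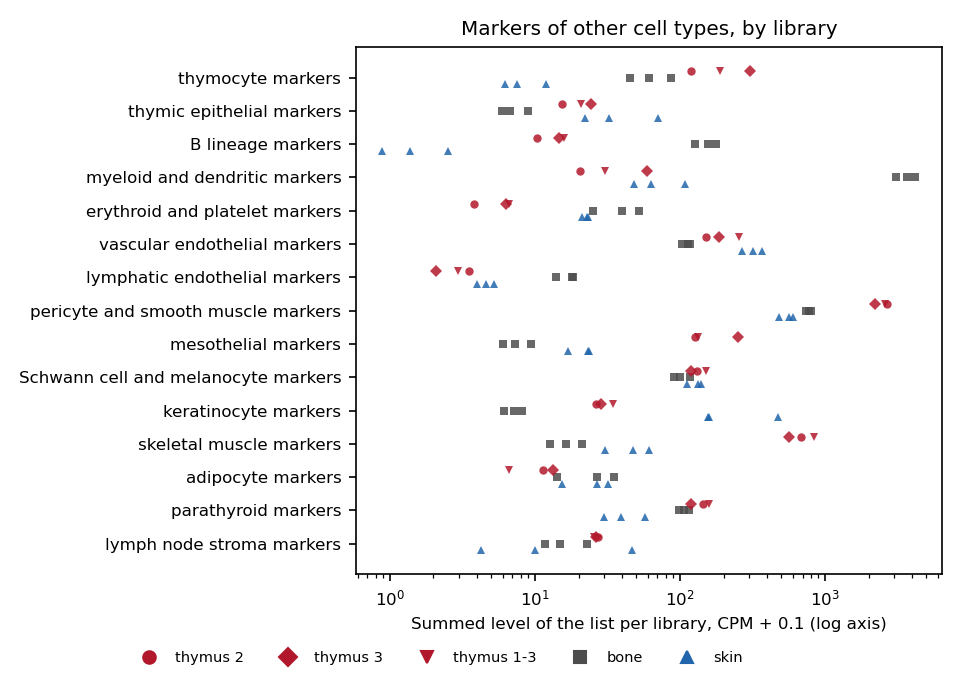
Summed normalised level (CPM + 0.1, log axis) of the tested members of each marker list in each of the 9 libraries, with thymus libraries drawn in red by separate symbols, bone as grey squares and skin as blue triangles. Thymocyte markers reached 302 CPM and mesothelial markers 253 CPM in thymus 3, above every bone and skin library.

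With the same rule bone stood apart in 1018 genes higher (6.51%) and 603 lower (3.86%), and skin in 782 higher (5%) and 1180 lower (7.55%). Without the 2-fold limit, 2096 genes (13.4%) passed against the mean and were higher against each tissue, and 1794 (11.5%) were lower. Of the higher genes 316 differed at least 4-fold from each tissue, 172 at least 8-fold and 99 at least 16-fold, and of the lower genes 316, 190 and 122 did so. All 3 thymus libraries lay above all 6 others for 632 of the 633 higher genes, and for 1736 genes (11.1%) of all tested. They lay below all others for 558 of the 599 lower genes, and for 1236 genes (7.91%) of all tested. Scaled by library size alone, 782 genes were higher and 455 lower, and the median log2 fold change of all genes tested against the mean moved from 0.03 to 0.31, so changes are read relative to that shift. Without the 2-fold limit that scaling gave 3874 genes higher and 1183 lower in thymus, and the RPKM fits 3886 to 4032 higher. With the 2-fold limit and the full rule, library size scaling gave 353 genes higher and 2922 lower for skin, and 342 lower for bone.

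**Figure D2:**
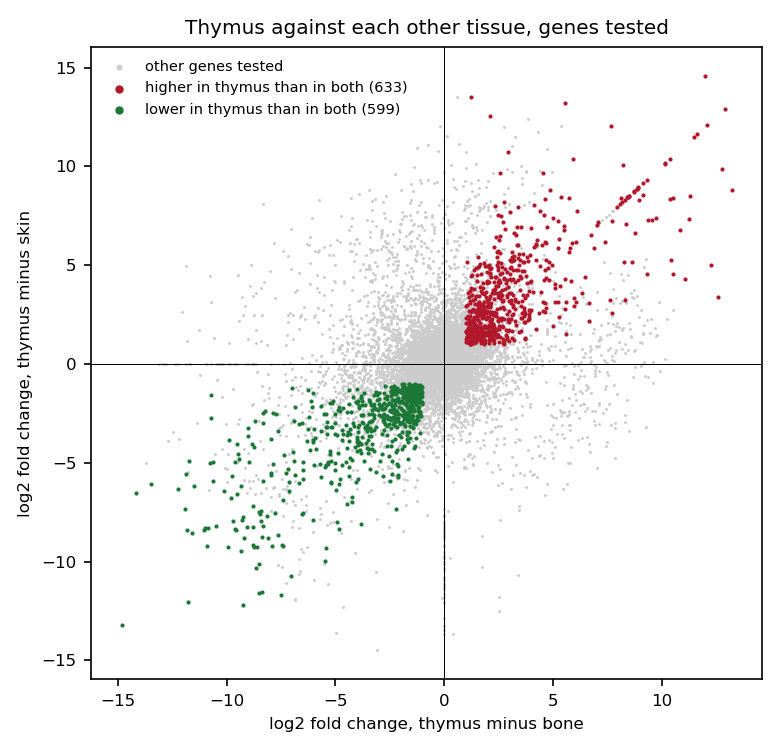
Fitted log2 fold change of thymus against bone (horizontal axis) and against skin (vertical axis) for the 15635 genes tested, with the 633 genes higher than in both tissues in red and the 599 lower than in both in green. Both axes share the thymus libraries, so the tilt of the cloud along the diagonal is no result. The coloured genes fill the upper right and lower left corners by the rule that chose them.

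Bone and skin also differed from each other in part of these genes. Among the higher genes, 312 also passed between bone and skin, 218 with bone above skin and 94 with skin above bone, against 23.7% and 23.4% of all genes tested. The other 321 did not pass between bone and skin. Among the lower genes 253 passed between the other tissues, 136 with bone higher and 117 with skin higher. The higher genes took 14.6% ± 0.929 of the gene reads in thymus, 2.97% ± 0.167 in bone and 1.69% ± 0.305 in skin (SD, n = 3), which describes genes chosen for their level and is no test.

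Of the genes at 20 CPM or more in thymus, Atcay had the largest gap. It encodes caytaxin, a protein known from neurons. It was at 37.2, 29.8 and 25.6 CPM in the thymus libraries, with 10605 reads there in all, against 2 reads in the 3 bone libraries and 0 in the 3 skin libraries. The ratio to bone was 4863 with a 95% counting interval of 1346 to 40160.0, and the level was at least 2530.4-fold higher than in skin, where the skin group was set to a floor of 3 reads in all. Such intervals and floors cover counting error only.

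Ltc4s encodes leukotriene C4 synthase, which makes the parent compound of the cysteinyl leukotrienes. It was at 117, 90.1 and 146 CPM in thymus, while the highest of the 6 other libraries held 0.586 CPM. The log2 fold change was 8.95 ± 0.80 (SE) against bone and 8.28 ± 0.77 against skin. Extl1, a glycosyltransferase of the heparan sulfate pathway, was at 46.2 ± 11.6 CPM in thymus and at 0.0552 and 0.27 CPM in bone and skin. Pcdh12, a protocadherin known from endothelium, was at 61.3 ± 9.7, 0.869 and 0.289 CPM in the same order. In both genes all thymus libraries were far above all others, and no overlap was a condition of their choice. Endothelial markers summed to less in thymus than in skin and to more than in bone, as given above. Plvap and Emcn among them stood higher than in both, and their part in Pcdh12 was not tested.

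Adra2a, the alpha 2A adrenergic receptor, was at 130.0, 96.5 and 142 CPM in thymus, 3.8 ± 1.84 CPM in bone and 0.727 ± 0.288 CPM in skin. P2ry1, a receptor for ADP, was at 92 ± 20.2 CPM in thymus against 3.55 and 1.33 CPM. Csf2rb2, the beta chain of the mouse interleukin-3 receptor, was at 169 ± 24.1 CPM against 6.33 and 1.38 CPM. Lphn3, an adhesion receptor, and Mrgprg, an orphan G-protein-coupled receptor, were also in this set, the latter at 37.9 ± 10.3 CPM with 2 reads in all of bone and 1.19 CPM in skin. In all of them the 3 thymus libraries were above the 6 others and both pairwise tests passed, which the choice of these genes required.

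The rest of the 24 genes named by size of the gap were of mixed function. Gja4 (connexin 37, a gap junction protein), Cldn15 (a claudin also expressed by mesothelium), Kcng4 (a modifier subunit of potassium channels), Rapgef5 (an activator of Rap GTPases), Mrvi1 (a substrate of cGMP-dependent kinase in smooth muscle), Tusc5 (a regulator of glucose transporter traffic in fat) and Col26a1 and Col7a1 (collagens) were each between 37 and 102 CPM in thymus. Their means in bone and skin did not exceed 4.58 CPM. Unlike the other mesothelial markers called higher, which peaked in thymus 3, Cldn15 was not highest in that library, with 88.6, 87.2 and 67.4 CPM.

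**Figure D3:**
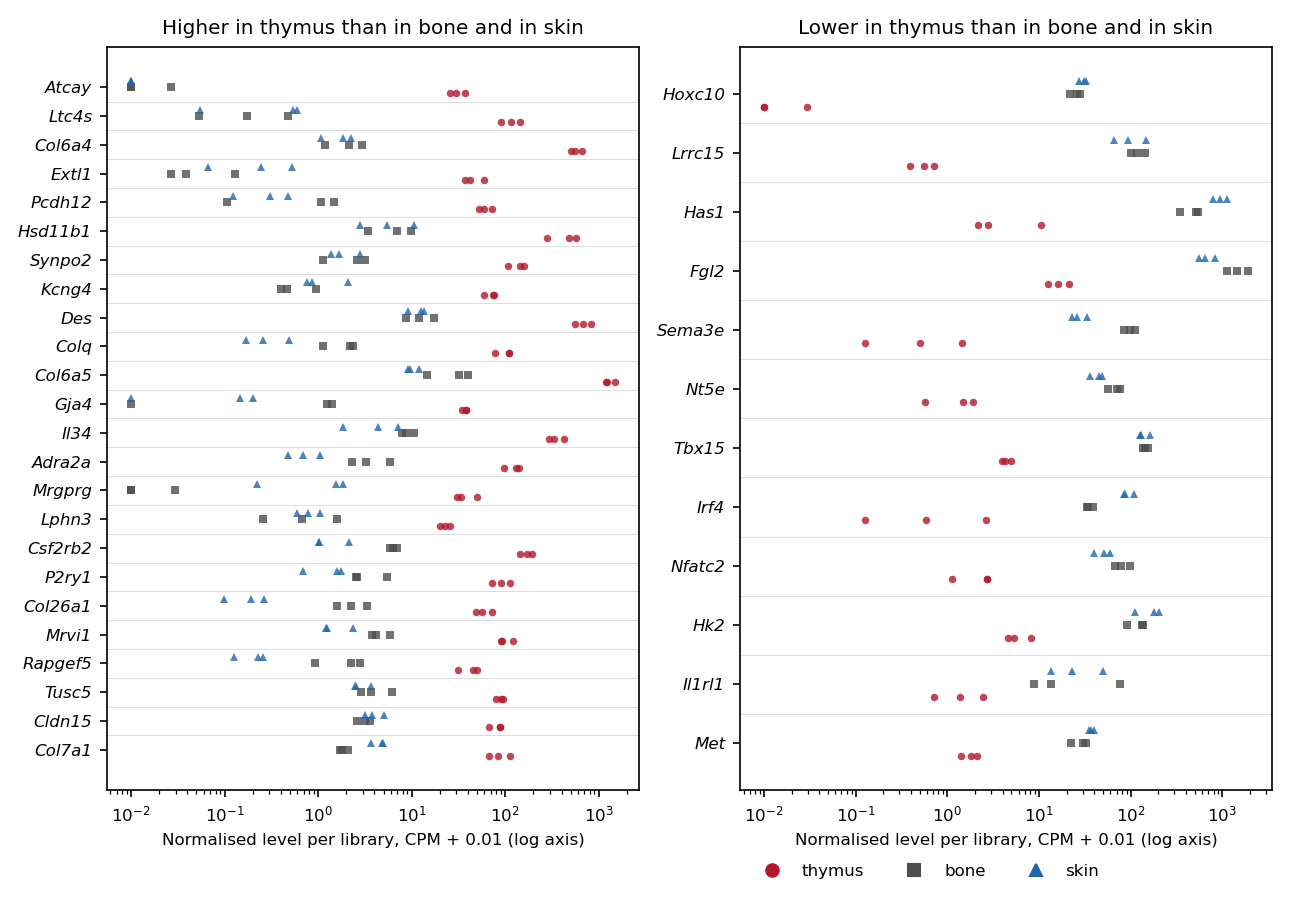
Normalised level (CPM + 0.01, log axis) in each of the 9 libraries for the 24 genes with the largest gap above both tissues at 20 CPM or more in thymus (left) and the 12 with the largest gap below both at 20 CPM or more in bone and skin (right), with thymus as red circles, bone as grey squares and skin as blue triangles. In every row the 3 thymus points stand clear of the 6 others, which the rule that chose the genes required.

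Collagen VI forms beaded microfibrils at the border of basement membranes, and Col6a4, Col6a5 and Col6a6 encode 3 alternative chains of it. They are neighbours on chromosome 9, where the deposited tables (build mm10) place Col6a6, Col6a5 and Col6a4 in a run from 105689417 to 106096691, all on the reverse strand. Per transcript length Col6a4 was at 74.5 ± 9.57 RPKM in thymus, Col6a5 at 136 ± 17.7 RPKM and Col6a6 at 198 ± 16.1 RPKM. All 3 stood higher than in both tissues.

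The level of Col6a4 was 661, 509 and 557 CPM in thymus and no more than 2.91 CPM in any other library. The log2 fold change was 8.12 ± 0.41 against bone and 8.39 ± 0.42 against skin (adjusted p = 3.4e-08 against their mean, edgeR). Col6a5 was at 1484, 1235 and 1188 CPM, against 28.8 ± 13 CPM in bone and 10.3 ± 1.59 CPM in skin. Col6a6 was at 1674, 1393 and 1499 CPM in thymus, 129, 169 and 53.3 CPM in bone and 786, 736 and 404 CPM in skin. Its gap to skin was the narrowest of the 3, and its call was lost when skin 2, skin 3 or any 1 thymus library was left out. The main chains Col6a1, Col6a2 and Col6a3 were not apart. Of the 21 collagen VI and microfibrillar genes 4 stood higher (19%, against 4.05% of all genes) and none lower. The fourth was Vwa1, a partner of collagen VI and perlecan, at 158 ± 17.8 CPM in thymus.

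The 250 bases before the starts of these 3 neighbouring genes are shown because the genes moved together. They are RefSeq sequences of build GRCm38.p6 on the reverse strand of chromosome 9, at chr9:106096692-106096941, chr9:105960644-105960893 and chr9:105828086-105828335. Capitals mark CANNTG, the E-box that basic helix-loop-helix factors are known to bind. It occurs 3 times before Col6a5 and in neither of the other windows as far as printed.
Col6a4: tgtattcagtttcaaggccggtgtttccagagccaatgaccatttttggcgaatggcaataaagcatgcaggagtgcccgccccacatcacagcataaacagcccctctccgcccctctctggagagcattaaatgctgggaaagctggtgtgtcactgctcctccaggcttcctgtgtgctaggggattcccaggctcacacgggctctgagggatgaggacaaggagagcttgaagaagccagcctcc
Col6a5: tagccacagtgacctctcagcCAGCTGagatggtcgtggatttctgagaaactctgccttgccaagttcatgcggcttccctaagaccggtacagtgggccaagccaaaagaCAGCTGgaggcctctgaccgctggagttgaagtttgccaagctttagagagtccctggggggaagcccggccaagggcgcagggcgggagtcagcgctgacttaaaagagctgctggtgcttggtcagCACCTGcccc
Col6a6: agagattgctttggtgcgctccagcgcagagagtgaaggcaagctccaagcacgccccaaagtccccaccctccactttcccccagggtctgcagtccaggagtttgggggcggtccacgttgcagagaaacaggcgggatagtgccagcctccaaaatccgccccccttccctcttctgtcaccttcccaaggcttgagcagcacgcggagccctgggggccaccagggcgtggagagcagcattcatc

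Among the 29 basement membrane genes, 6 stood higher in thymus and none lower (20.7%, against 4.05% of all genes tested), and the median log2 fold change of the list against the mean was 0.91, against 0.03 for all genes. Col15a1, a collagen of the vascular and muscular basement membrane zone, was at 7027, 5638 and 7858 CPM in thymus, 652 ± 83.2 CPM in bone and 769 ± 175 CPM in skin. The network-forming chains Col4a1 and Col4a2 were 1.39 and 1.06 above bone and 1.73 and 1.56 above skin on the log2 scale. Colq, which anchors acetylcholinesterase in the synaptic basement membrane, was at 99.1 ± 17.7 CPM in thymus, 1.88 CPM in bone and 0.293 CPM in skin. Lama1 and Col18a1 completed the 6, and the call of Col18a1 was lost without bone 3. Itga1 and Itga8, integrin chains of receptors for collagen and for nephronectin, stood higher as well, at 238 ± 24.6 and 82.5 ± 10.5 CPM in thymus.

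Fibrillar matrix went the other way or did not stand apart. None of the 28 fibrillar collagen genes and their enzymes stood higher and 3 stood lower, with a median log2 fold change of -0.66. Col1a1 was at 6384, 6756 and 7749 CPM in thymus, 12234, 14208 and 13029 CPM in bone and 93927, 106280.0 and 91525 CPM in skin. It passed against the mean (adjusted p = 4.5e-07, edgeR) with thymus lowest, but was under 2-fold from bone. Col11a1, a minor chain of fibrils rich in cartilage, was at 0.569 ± 0.249 CPM in thymus, 287 CPM in bone and 17.5 CPM in skin. The cross-linking enzyme Lox and the procollagen protease enhancer Pcolce2 were the others, and Lox lost its call without bone 3 or thymus 2.

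Of the 24 adhesive glycoproteins tested 8 stood lower in thymus (33.3%, against 3.83% of all genes) and 3 higher, and the median log2 fold change was -1.20. Fn1, fibronectin, was at 1614, 2602 and 3018 CPM in thymus, 39044, 31770.0 and 40038 CPM in bone and 21233, 23979 and 16098 CPM in skin. The highest thymus library was well below the lowest library of either tissue. Thbs1, thrombospondin 1, was -2.46 ± 0.20 against bone and -2.85 ± 0.20 against skin on the log2 scale. The higher ones were Spon1 (F-spondin), Vtn (vitronectin) and Mfge8, a bridge between phosphatidylserine on dying cells and integrins on phagocytes, at 1448 ± 197 CPM in thymus, 163 CPM in bone and 255 CPM in skin. Has1, which makes hyaluronan, was at 2.76, 10.5 and 2.17 CPM in thymus against 466 ± 107 and 950.4 ± 164 CPM.

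Of the 44 matrix proteases and inhibitors 6 were higher and 8 lower (13.6% and 18.2%, against 4.05% and 3.83% of all genes). Serpine2, an inhibitor of thrombin and plasminogen activators, was at 3425 ± 513 CPM in thymus, 522 ± 11.8 CPM in bone and 23.4 ± 12.2 CPM in skin. Mmp9, a gelatinase, was at 601, 461 and 585 CPM in thymus, 92.6 CPM in bone and 0.674 CPM in skin. Timp1, an inhibitor of metalloproteases, stood lower. The count of higher proteases fell to 3 without skin 3, thymus 2 or thymus 1-3. Bgn, the matrix proteoglycan biglycan, was the only higher one of 14 small leucine-rich proteoglycans, and it lost its call without thymus 1-3. In that list 4 stood lower (Chad, Kera, Fmod and Aspn, 28.6%), with a median log2 fold change of -0.58. The calls of Fmod and Aspn were lost under library size scaling and on RPKM.

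Ligands that act on developing T cells were higher or not apart. Of 16 listed 15 were tested, 6 stood higher (40%, against 4.05% of all genes) and none lower, and the median log2 fold change against the mean was 2.15, against 0.03 for all genes. Ccl19, a chemokine for CCR7 that draws thymocytes and dendritic cells, was at 65, 61.1 and 56.3 CPM in thymus, 3.62, 3.92 and 4.72 CPM in bone and 4.35, 5.6 and 3.97 CPM in skin. The thymus libraries were close to each other and above the rest, with a log2 fold change of 3.90 ± 0.19 against bone and 3.71 ± 0.19 against skin (adjusted p = 1.1e-08 against the mean, edgeR). Flt3l, a growth factor for early lymphoid and dendritic progenitors, was at 105, 82.3 and 144 CPM in thymus, 8.64 ± 1.27 CPM in bone and 15.3 ± 4.26 CPM in skin.

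Tnfsf13b (BAFF, a survival factor for B cells), Il15 (a cytokine for natural killer and memory T cells), Tslp (a cytokine for dendritic cells and early lymphocytes) and Dll1 (a ligand of Notch) were the other 4. Tnfsf13b was at 22, 22.2 and 23.1 CPM in thymus, against 2.35 and 3.23 CPM. Il15 was at 15.3 ± 3.24 CPM against 2.63 and 4.55 CPM, and Tslp at 15.3 ± 2.47 CPM against 1.16 and 2.55 CPM. Ligands central to early T cells were not apart. Il7 was at 6.47, 4.26 and 3.81 CPM in thymus, 2.44 ± 0.446 CPM in bone and 0.264 ± 0.151 CPM in skin, and Kitl at 61.2 ± 14, 37.5 ± 10.7 and 20.4 ± 2.19 CPM. Both passed against the mean (adjusted p = 0.0006 and 0.00044, edgeR) and lay under 2-fold from bone, where only Kitl passed the test (adjusted p = 0.16 and 0.025). Cxcl12, which retains blood progenitors in their niche, was lower against each tissue but under 2-fold from skin, at 231 ± 34.8 CPM in thymus, 963 ± 117 CPM in bone and 359 ± 82.7 CPM in skin.

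Notch genes other than Dll1 also stood higher, 4 of 17 tested in all and none lower (23.5%). Notch3, the receptor known from vascular mural cells, was at 308, 217 and 235 CPM in thymus, 58.4 ± 16.3 CPM in bone and 10.5 ± 2.64 CPM in skin. Its target Heyl was at 81 ± 15.7, 34 ± 13.3 and 12.5 ± 2.07 CPM in the same order. Notch4 was at 9.41 ± 1.41 CPM in thymus, 1.28 ± 1.01 CPM in bone and 0.847 ± 0.181 CPM in skin. Notch3 is also on the pericyte marker list, whose sums are given above.

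Of 20 tested genes of reticular and lymph node stroma, 5 were higher and none lower (25%), with a median log2 fold change of 0.61. Beside Ccl19 and Tnfsf13b they were Des, Nfkb2 and Enpp2. Enpp2 encodes autotaxin, the enzyme that makes lysophosphatidic acid, and was at 4403, 3729 and 3011 CPM in thymus, 319 ± 22.2 CPM in bone and 30.4 ± 7.75 CPM in skin. Ltbr, the lymphotoxin beta receptor, was not apart, at 139 ± 18.9 CPM in thymus, 63.6 ± 4.39 CPM in bone and 130.5 ± 15.2 CPM in skin.

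Growth factors for the epithelium did not move as a group, with 3 higher and 2 lower of 23 tested (13% and 8.7%). Fgf1 was at 151, 153 and 157 CPM in thymus, 26.2, 17.5 and 13.6 CPM in bone and 6.96, 10.4 and 6.33 CPM in skin. The thymus libraries were nearly level and far above the others. Bmp4 was at 74.9 ± 6.12 CPM in thymus, 26.5 ± 2.66 CPM in bone and 20.6 ± 7.07 CPM in skin. Fgf10, known to be needed for growth of the thymic epithelium, was at 58.3, 51.2 and 50.6 CPM in thymus, 16.1, 12.2 and 3.31 CPM in bone and 20.4, 23 and 15 CPM in skin, and its call was lost when any 1 skin or thymus library was left out. Fgf7, a ligand of the same epithelial receptor, stood lower, as did Rspo2, an enhancer of Wnt signals. Rspo2 had a mean of 0.0233 CPM in thymus, 52.5 ± 9.98 CPM in bone and 8.41 ± 2.96 CPM in skin.

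Il34, a ligand of the CSF1 receptor on macrophages, was at 426, 332 and 297 CPM in thymus, 7.84, 10.5 and 8.61 CPM in bone and 1.83, 4.37 and 7.1 CPM in skin. Of 35 interleukins and receptors 7 stood higher and 4 lower (20% and 11.4%, against 4.05% and 3.83% of all genes). Il33, an alarmin cytokine, was among the higher at 386 ± 11.6 CPM in thymus, 33.1 ± 6.55 CPM in bone and 76.1 ± 39.6 CPM in skin, while Il1rl1, the receptor for its product, was at 0.713, 1.36 and 2.42 CPM in thymus, 13.6, 8.72 and 76.7 CPM in bone and 13.5, 23 and 49.3 CPM in skin. Il6 was lower and uneven among the thymus libraries, at 9.95, 25.4 and 2.56 CPM, against 138 ± 53 and 248 ± 89.5 CPM. Of 32 chemokines tested Ccl19, Ccl11 and Cx3cl1 stood higher (9.38%). The neutrophil attractants Cxcl1 and Cxcl2 and the macrophage chemokines Ccl3 and Ccl6 stood lower (12.5%). Myeloid markers summed to 20.3 to 59.6 CPM in thymus, 48.4 to 109 CPM in skin and 3060 to 4190 CPM in bone. Their part in these chemokine values was not tested. Cxcl1 was at 26.8, 70.9 and 17.3 CPM in thymus, 486 ± 189 CPM in bone and 1170.1 ± 185 CPM in skin. The higher count of chemokines was 5 without skin 3, and the lower count 7 without bone 2.

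Complement C3 was among the most abundant messages of the thymus libraries. Per transcript length it was at 4600.0 ± 314 RPKM in thymus, the second highest of all genes there, against 133 ± 27.5 RPKM in bone and 354 ± 123 RPKM in skin. On the count scale, which unlike RPKM was TMM scaled, C3 was 5.10 ± 0.30 above bone and 3.15 ± 0.27 above skin in log2 units. C3 is the central component of the cascade. Of 25 complement genes 4 stood higher (C3, C7, C1s and Masp1) and 3 lower. These were 16% and 12%, against 4.05% and 3.83% of all genes. The call of C7 was lost without skin 2, thymus 2 or thymus 3. The higher count was 2 without thymus 2, and the lower count was 1 without bone 1, bone 3, skin 2, skin 3 or thymus 2.

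Of 18 genes of MHC class I and its peptide supply 6 stood higher and 1 lower (33.3% and 5.56%), with a median log2 fold change of 1.26. H2-K1, a classical heavy chain, was 2.74 ± 0.21 above bone and 1.15 ± 0.20 above skin, and H2-D1 2.06 ± 0.27 and 1.21 ± 0.26 on the log2 scale. The reads of these near-identical heavy chains may be split between them in the counting. B2m, the light chain, was the highest gene per length in thymus, but its 3 libraries were spread at 3623, 3397 and 7764 CPM and its call was lost without skin 1, skin 2 or thymus 1-3. Leaving out skin 1 ended the call of H2-D1 and lowered the count of higher class I genes to 2. None of the 10 class II genes and none of the 25 interferon response genes listed stood higher. The share of all genes was 4.05%, at which few or none of so short a list would do so. Outside the interferon list, Gbp4, Gbp7, Gbp9, Ifi44 and Ifitm1 stood higher and Ifitm6 lower, so the list does not speak for all such genes. The median log2 fold change of the interferon list was 0.49, and without skin 3 its higher count was 4. The scaling by library size raised the class I count to 10.

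Of 24 neurotrophic genes listed 20 were tested, 6 were higher and 1 lower (30% and 5%), with a median log2 fold change of 0.98. Ret, the signalling receptor for the GDNF family, was at 259.6, 224 and 290.4 CPM in thymus, 29.4, 30.4 and 50.7 CPM in bone and 13.8, 27.5 and 14.1 CPM in skin. Gfra2, its co-receptor for neurturin, was at 191, 157 and 175 CPM in thymus, 7.57 ± 1.9 CPM in bone and 19.7 ± 2.98 CPM in skin. In both genes all thymus libraries were several-fold above the rest.

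Ngfr, the low-affinity neurotrophin receptor, was at 107 ± 18.6 CPM in thymus, 6.87 ± 3.42 CPM in bone and 16.7 ± 4.64 CPM in skin. Ptn (pleiotrophin) and Mdk (midkine), heparin-binding growth factors, were also higher, with Ptn at 605 ± 81.1 CPM against 72 and 63.6 CPM. The ligands Gdnf and Nrtn were under 1 CPM in every thymus library, and Bdnf was lower than in both tissues. Of the Schwann cell and melanocyte markers, 4 of 11 stood lower and only Ngfr higher.

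Guidance and excitability genes held further members. Of 46 axon guidance genes 9 stood higher and 5 lower (19.6% and 10.9%). Unc5c and Unc5b, receptors for netrins, Epha7 and Epha3, receptors for ephrins, and Slit2, a repellent, were among the higher, with Unc5c at 39.6 ± 4.54 CPM in thymus, 4 CPM in bone and 0.422 CPM in skin. Ntn1, a netrin, stood lower, and so did Sema3e, a ligand of Plxnd1, at 0.117, 1.42 and 0.49 CPM against 97.6 ± 12.9 and 27.4 ± 5.43 CPM. Plxnd1 itself stood higher, at 284 ± 33.1 CPM in thymus, 73.7 ± 9.77 CPM in bone and 30.3 ± 6.55 CPM in skin.

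Of 41 potassium and calcium channel genes tested, 7 stood higher and 1 lower (17.1% and 2.44%). Kcnmb1, the smooth muscle subunit of the large-conductance channel, was at 5.69 ± 1.61 CPM in thymus with 5 reads in bone and 9 in skin. Abcc9, the sulfonylurea receptor of vascular channels, was at 375 ± 44.2 CPM in thymus, 37.5 ± 9.68 CPM in bone and 95 ± 18.2 CPM in skin. Cacna1c and Cacna1d, pore subunits of L-type calcium channels, were also higher, and the call of Cacna1d was lost in both fits on log2 of RPKM + 1.

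Of 22 contractile genes 21 were tested, 8 stood higher and none lower (38.1%), with a median log2 fold change of 0.82. Des encodes desmin, the intermediate filament of muscle that reticular fibroblasts and pericytes also carry, and was at 682, 556 and 836 CPM in thymus, 17.2, 8.6 and 12.1 CPM in bone and 12.5, 13.4 and 9.05 CPM in skin. All thymus libraries were far above the highest other library, and no overlap was a condition for the 24 genes that include Des. Synpo2, an actin-binding protein of muscle, was at 136 ± 26.9 CPM against 2.29 and 1.94 CPM, and Mylk, myosin light chain kinase, at 565 ± 104 CPM against 46.2 and 15.5 CPM.

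Myh11, smooth muscle myosin, was at 38.1, 36.7 and 37.9 CPM in thymus, 4.64 ± 2.05 CPM in bone and 1.31 ± 1.01 CPM in skin. Des and Myh11 are also on the pericyte and smooth muscle marker list, of which 8 members were higher and 8 not apart, and its part in these values was not tested. Acta2 was at 55.1, 45.5 and 74 CPM in thymus, 32 ± 8.13 CPM in bone and 41.6 ± 35.3 CPM in skin (adjusted p = 0.29, edgeR). Cnn1 was at 0, 0 and 0.108 CPM, and Rgs5 and Cspg4, which mark pericytes, were lower than in bone and higher than in skin, at 15.3 ± 4.53 CPM against 72.2 ± 7.28 and 0.674 ± 0.324 CPM for Rgs5 and 23.8 ± 3.28 CPM against 212 ± 19.9 and 14.8 ± 4.02 CPM for Cspg4.

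Enzymes of steroid handling were in the higher set. Hsd11b1, which regenerates active glucocorticoid from its inert form, was at 568, 483 and 282 CPM in thymus, 3.4, 6.94 and 9.72 CPM in bone and 2.77, 5.45 and 10.6 CPM in skin. The log2 fold change was 6.06 ± 0.60 against bone and 6.15 ± 0.61 against skin. Fkbp5, a known target of the glucocorticoid receptor, was at 181, 129.5 and 107 CPM in thymus, 26.8 ± 4.56 CPM in bone and 25.5 ± 3.24 CPM in skin. Cyp7b1, an oxysterol hydroxylase, was the third higher gene of 17 tested (17.6%, against 4.05% of all genes), and none of that list was lower. Apoe, a lipoprotein component, and Lpl, which hydrolyses lipoprotein fat, were higher too, with Apoe at 787 ± 41.4 CPM in thymus, 102 ± 19.4 CPM in bone and 162 ± 50.8 CPM in skin.

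Hox genes, which mark position along the body axis, split by group number. In the most anterior groups, 1 to 4, 10 of 12 genes were tested, 6 stood higher in thymus and none lower (60%). In groups 5 to 8, none of 11 was higher and 4 were lower (36.4%). In groups 9 to 13, 13 of 16 were tested, none was higher and 7 were lower (53.8%). Genes with no reads in thymus passed the filter on low values only through the other tissues, so the lower counts are descriptive.

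Hoxa3, which acts in the development of the thymus itself, was at 16.6, 16.1 and 34.8 CPM in thymus, 3.79, 6.41 and 1.81 CPM in bone and 2.44, 1.47 and 2.51 CPM in skin. Hoxd3 was at 19.8, 13.5 and 19.2 CPM in thymus and at 1.56 ± 0.875 and 1.33 ± 0.476 CPM in bone and skin. Hoxb3 was at 22.5 ± 5.11, 1.72 ± 0.849 and 9 ± 0.169 CPM and Hoxa2 at 11.5 ± 1.13, 1.39 ± 0.538 and 0.479 ± 0.431 CPM. Group 3 genes thus stood higher in all 3 clusters that hold one. Hoxa4 and Hoxd4 were higher at lower levels, with 4.56 ± 2.24 and 9.16 ± 1.62 CPM in thymus, and the call of Hoxd4 was lost without bone 3 or thymus 2. Hoxb2, Hoxb4 and Hoxc4 did not stand apart. Hoxb2 was highest in skin, at 23.8 ± 2.65 CPM against 17.1 ± 4.12 CPM in thymus, and Hoxc4 was highest there, at 14.3 ± 2.42 CPM.

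Within the Hoxa cluster the order of the genes matched the turn from higher to lower. Hoxa2, Hoxa3 and Hoxa4 stood higher as a run of neighbours on chromosome 6, from 52162511 to 52200938, and Hoxa7, Hoxa9, Hoxa10 and Hoxa11 stood lower in a run from 52214492 to 52249769 that also held 2 noncoding neighbours. Hoxa5 and Hoxa6, between them, were not apart. The counts are not stated to use strand, and reads of the noncoding neighbours cannot be told apart from those of the Hox genes they overlap. The level of Hoxa5 was 2.41, 6.55 and 4.99 CPM in thymus, 5.17 ± 2.43 CPM in bone and 2.1 ± 0.503 CPM in skin. Hoxa10 had 0 reads in the 3 thymus libraries, against 11440 reads in bone and 2876 in skin, and was at least 4158-fold and 1339-fold lower than in them, with thymus set to the same floor of 3 reads in all.

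In the Hoxc cluster Hoxc6, Hoxc8, Hoxc9, Hoxc10 and Hoxc11 stood lower as neighbours on chromosome 15, from 102954526 to 103011881. Hoxc10 had 2 reads in thymus, against 21.6, 28 and 26 CPM in bone and 30.5, 27.2 and 32.4 CPM in skin. Bone exceeded thymus by a ratio of 4313 (95% counting interval 1194 to 35620.0) and skin by 5158 (1427 to 42597). In the Hoxd cluster Hoxd8 was near level, at 17.7 ± 2.39, 12.5 ± 3.89 and 16.2 ± 1.55 CPM, and Hoxd10 stood lower. Hoxb8 was the lower gene of the Hoxb cluster, with no reads in thymus.

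**Figure D4:**
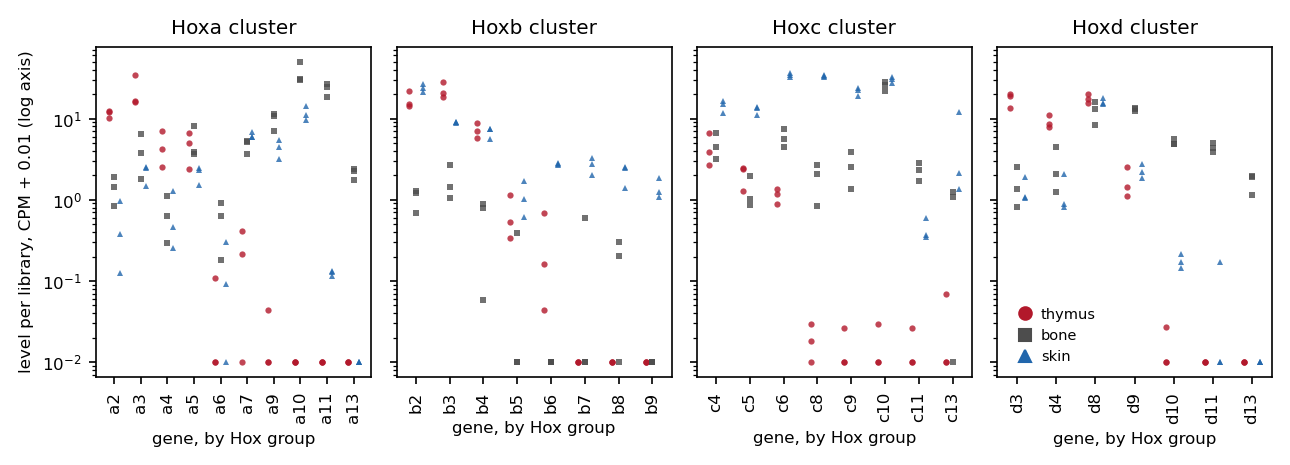
Normalised level (CPM + 0.01, log axis) of the Hox genes shown in each of the 9 libraries, with the 4 clusters in separate panels and genes ordered by Hox group, thymus as red circles, bone as grey squares and skin as blue triangles. Thymus points lie on top from a2 to a4 and at or near the axis floor from a9 to a11 and from c8 to c11.

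Other regional factors were counted likewise. Tbx15, a factor of limb and trunk mesenchyme, was at 4.25, 3.92 and 4.97 CPM in thymus, 144, 135 and 153 CPM in bone and 129, 125 and 162 CPM in skin. None of 17 tested limb and trunk factors was higher and 7 were lower (41.2%, against 3.83% of all genes). Among these were Emx2, En1, Pitx1 and Shox2. Shox2, a regulator of limb skeletal growth, was at 0.847 ± 0.313 CPM in thymus, 10.5 ± 3.77 CPM in bone and 8.01 ± 0.803 CPM in skin. Of 22 splanchnic and heart field factors 6 were higher and 2 lower (27.3% and 9.09%, against 4.05% and 3.83% of all genes). Tcf21, a factor of epicardial and visceral mesenchyme, was at 16.5, 12.3 and 16.8 CPM in thymus with 6 reads in bone and 24 in skin, and Tbx2 at 115 ± 27 CPM in thymus, 8.19 ± 3.05 CPM in bone and 2.71 ± 1.52 CPM in skin. Wt1, which mesothelium also expresses, was at 12.3, 25 and 20.3 CPM with 2 reads in bone and 12 in skin. Its library order was that of the summed mesothelial markers but not that of Cldn15.

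Of 31 pharyngeal and neural crest factors 6 were higher and 3 lower (19.4% and 9.68%). Meox1, a homeobox gene of the paraxial mesoderm, was at 209.7, 176 and 256 CPM in thymus, 15.7 ± 2.91 CPM in bone and 9.85 ± 1.74 CPM in skin. Nr2f1 and Nr2f2, orphan nuclear receptors, stood higher, Nr2f1 at 58.6 ± 6.5 CPM against 1.25 and 8.4 CPM. Hand2, Msx1 and Dlx1 completed the 6, and the call of Dlx1 was lost without skin 1, skin 2 or any 1 thymus library. Pax1, a factor of the pharyngeal pouch endoderm and of the vertebral column, was lower, at 0.249 ± 0.245 CPM in thymus, 7.06 ± 1.32 CPM in bone and 16.7 ± 2.83 CPM in skin.

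Hedgehog and Wnt genes had more lower than higher members. Of 14 Hedgehog genes 4 stood lower and none higher (28.6%, against 3.83% of all genes), with a median log2 fold change of -0.26. Hhip, which sequesters the ligands, was at 0.134, 1.9 and 1.8 CPM in thymus, 83.5 ± 12.7 CPM in bone and 19.5 ± 2.44 CPM in skin. Gli1 and Ptch1, direct targets, were at 11.2 ± 3.29 and 7.72 ± 1.39 CPM in thymus and over 2-fold above that in both tissues, and both calls were lost when libraries were scaled by size alone or as RPKM.

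Of 41 Wnt genes tested 7 were lower and 2 higher (17.1% and 4.88%), with a median log2 fold change of -0.56. The secreted antagonists Sfrp4, Sfrp5, Wif1 and Notum were among the lower, with Sfrp4 at 23.7, 48.2 and 70.6 CPM in thymus, 452 ± 114 CPM in bone and 995 ± 162 CPM in skin. Nkd2 and Axin2, feedback inhibitors within the cell, stood higher, Nkd2 at 154, 123 and 163 CPM in thymus against 16.3 ± 0.836 and 7.31 ± 4.21 CPM. The higher count was 4 without skin 2 and 5 under library size scaling.

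Of 22 immediate early genes, which cells induce within minutes of a stimulus, 12 stood lower and none higher (54.5%), and the median log2 fold change against the mean was -1.70. Nr4a1, an orphan nuclear receptor, was at 47.9, 87.9 and 53.8 CPM in thymus, 961, 905 and 1056 CPM in bone and 664, 766 and 610.4 CPM in skin. Fosb was at 844, 945 and 626 CPM in thymus, 2816 ± 301 CPM in bone and 4457 ± 892 CPM in skin, and Atf3 was uneven in thymus, at 61, 116 and 18.6 CPM, against 794 ± 203 and 1020.4 ± 191 CPM. Jun did not stand apart, at 1446 ± 108 CPM in thymus, 1086 ± 98.6 CPM in bone and 2584 ± 162 CPM in skin. Of 15 heat shock genes 5 were lower and none higher (33.3%), with a median of -0.89. Irf4 and Nfatc2, activation-linked factors of lymphocytes, were lower at 1.11 ± 1.34 and 2.16 ± 0.908 CPM in thymus, and Irf4 lost its call with DESeq2. Bone and thymus were digested for different times, as given above, so tissue and preparation cannot be told apart in these genes.

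Among genes at 20 CPM or more in both bone and skin, the 12 with the largest gap below both tissues were Hoxc10, Lrrc15, Has1, Fgl2, Sema3e, Nt5e, Tbx15, Irf4, Nfatc2, Hk2, Il1rl1 and Met. Nt5e, the ectoenzyme CD73 that makes adenosine and is widely used as a mesenchymal stromal marker, was at 0.562, 1.9 and 1.46 CPM in thymus, 56, 71.5 and 77.2 CPM in bone and 44.7, 48.3 and 35.8 CPM in skin. Hk2, an inducible hexokinase, was at 4.57, 8.19 and 5.27 CPM in thymus, 120.3 ± 25.6 CPM in bone and 165 ± 48.4 CPM in skin. The other markers of stromal cell identity went various ways, with Eng, Mcam and Pdgfrb higher and 12 of 16 not apart.

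Lrrc15, a leucine-rich membrane protein of fibroblasts, was at 0.378, 0.703 and 0.549 CPM in thymus, 101, 143 and 116 CPM in bone and 65.9, 93 and 147 CPM in skin. Fgl2, a fibrinogen-like protein with immune functions, was at 16.1, 21 and 12.5 CPM in thymus, 1893, 1130.3 and 1456 CPM in bone and 554, 639.8 and 821 CPM in skin. Met, the receptor for hepatocyte growth factor, was at 1.39, 2.08 and 1.79 CPM in thymus, 32.8, 22.5 and 30.2 CPM in bone and 37.1, 35.1 and 39.6 CPM in skin. In each of them the highest thymus library was several-fold below the lowest other library, and no overlap was a condition of their choice.

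Lrrc15, Fgl2 and Met were picked from the 12 lower genes after the values were seen, and matches in the rest are not given. Their start windows each hold a match to TGANTCA, the motif that FOS and JUN dimers are known to bind. It was searched on both strands, as were 6 other motifs, in the windows from 250 bases before to 50 bases after the start of the 9179 tested genes with a single RefSeq window. It was found in 36 of 350 lower genes (10.3%), 17 of 345 higher genes (4.93%) and 479 of all 9179 (5.22%). TATAAA, the TATA box, was found in 14.6%, 8.41% and 8.07% of the same sets, and CANNTG in 70.3%, 69% and 64%. AGGTCA was found in 13.1%, 11% and 11.9%, GTGGGAA in 6.57%, 6.96% and 6.23%, TAATTA in 3.71%, 4.06% and 2.58%, and the CArG box in 1.43%, 1.45% and 1.36%. Matches to different motifs may overlap. A match is a description of the letters and not of a bound factor. The 250 bases before the 3 starts lie at chr16:30283255-30283504 (reverse strand), chr5:21372423-21372672 and chr6:17463707-17463956 (forward strand) of GRCm38.p6, and the match is in capitals.
Lrrc15: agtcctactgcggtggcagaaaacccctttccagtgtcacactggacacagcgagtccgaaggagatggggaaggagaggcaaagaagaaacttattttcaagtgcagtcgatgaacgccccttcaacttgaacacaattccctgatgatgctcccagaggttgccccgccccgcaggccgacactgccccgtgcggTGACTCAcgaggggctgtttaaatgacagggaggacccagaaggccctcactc
Fgl2: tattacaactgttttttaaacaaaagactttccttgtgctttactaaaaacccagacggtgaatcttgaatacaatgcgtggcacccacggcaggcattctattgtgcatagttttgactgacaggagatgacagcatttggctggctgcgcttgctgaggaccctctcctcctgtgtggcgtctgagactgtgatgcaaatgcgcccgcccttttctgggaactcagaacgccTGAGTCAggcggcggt
Met: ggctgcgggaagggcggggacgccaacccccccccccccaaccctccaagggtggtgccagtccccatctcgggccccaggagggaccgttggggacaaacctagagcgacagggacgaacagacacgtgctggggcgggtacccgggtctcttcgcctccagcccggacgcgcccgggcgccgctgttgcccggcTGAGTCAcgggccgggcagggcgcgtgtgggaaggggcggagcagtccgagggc

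Of 18 chondrogenic genes tested 4 were lower (22.2%) and of 16 osteogenic genes 2 (Sp7 and Dlx5, 12.5%), with none higher, against 3.83% of all genes lower. A gene high in bone alone does not stand apart in thymus by the rule used. Of 16 dermal fibroblast and papilla genes 1 was higher and 3 lower (6.25% and 18.8%), and of 15 capsular and adventitial fibroblast genes only Procr was lower, a call lost without skin 3, under library size scaling and in all 3 RPKM fits, and none was higher. Pi16, a marker of adventitial fibroblasts, was at 761, 1628 and 1639 CPM in thymus, 269.7 ± 37.3 CPM in bone and 4271 ± 824 CPM in skin, between the other tissues. Cell cycle genes did not move together, though Ccnd1, cyclin D1, was at 452, 347 and 366 CPM in thymus, 40.4 ± 3.1 CPM in bone and 43.2 ± 4.69 CPM in skin.

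**Figure D5:**
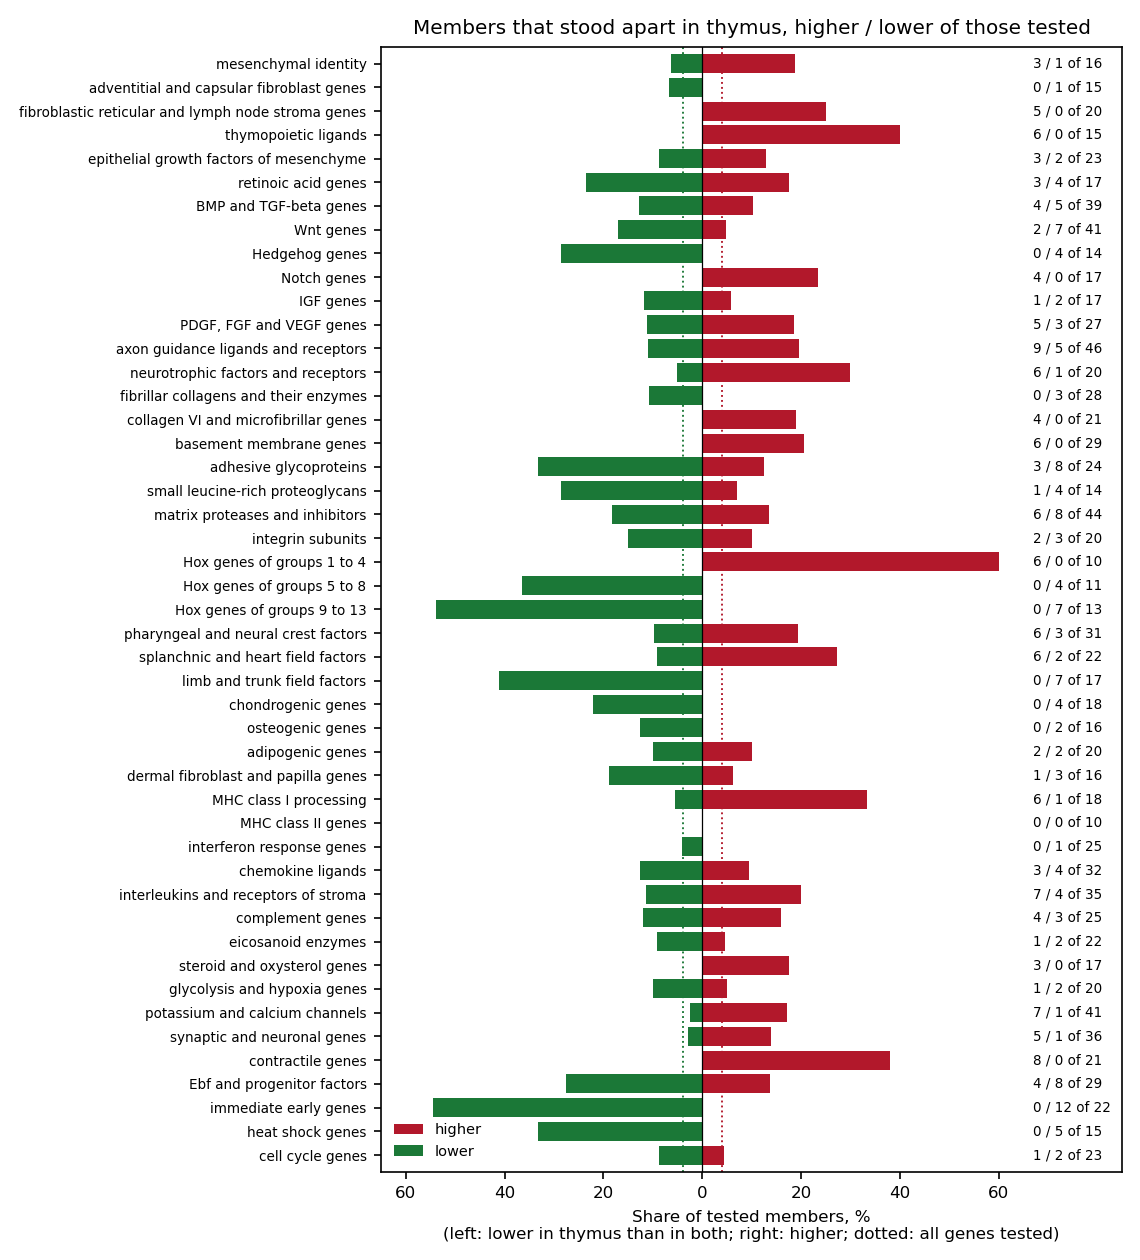
Share of the tested members of each gene list that stood higher (right, red) or lower (left, green) in thymus than in both other tissues, with the counts written at the right and the shares of all genes tested (4.05% and 3.83%) as dotted lines. Hox genes of groups 1 to 4 reach 60% higher and immediate early genes 54.5% lower.

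The test that chose the higher genes favours those with a small spread between libraries, so their closeness is no finding. Of 572 higher genes at 5 CPM or more in thymus, 31 differed over 2-fold between the highest and the lowest thymus library. In 17 of these thymus 3 was highest, and the widest included the mesothelial genes Lrrn4, at 3.4, 23.8 and 8.05 CPM, and Upk3b, at 5.98, 38.5 and 10.6 CPM, and the thymocyte gene Cd8a, at 8.65, 28.1 and 14 CPM. Lrrn4 lost its call without thymus 3 or bone 2. Of 375 lower genes at 1 CPM or more in thymus, 109 differed over 2-fold between thymus libraries, and thymus 3 was highest in 64 of them and thymus 1-3 in 36.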

How the data were processed

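Total RNA of 9 sorted samples was sequenced, and the authors deposited raw counts and RPKM per gene for each. Per the submitters' processing notes, CASAVA 1.8.2 and HTSeq 0.5.4 were used with build mm10, and no aligner is named there. The deposited counts of 23420 genes were tested as they stand. Rows of the tables that name no gene held 5.05% to 14.8% of a library's reads and were left out. Per the file contents the authors' RPKM values divide counts by gene length. They were used for levels compared between genes, for C3 in the 3 tissues and for alternatives, and TMM scaling was not applied to them. EdgeR 4.0.16 (R 4.3.3) was run with TMM scaling, filterByExpr (15635 genes kept) and a robust quasi-likelihood fit of 1 mean per tissue, with Benjamini-Hochberg adjustment over all genes tested. SE is approximate, the size of the log2 fold change divided by the root of F. The thymus contrasts against bone and against skin share the thymus libraries. DESeq2 1.42.0 and limma 3.58.1 were alternatives, and the closing section gives their effect.

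The gene lists were chosen with earlier results of these data known. Genes named are the 24 higher and 12 lower with the largest smaller fold change (at least 20 CPM, no overlap between groups), and in each list up to 4 apart genes with the largest smaller fold change at 5 CPM or more. The rest of the genes named, such as Axin2, Plxnd1, Il33, H2-K1, Abcc9, Hoxb3 and Jun, were added after their values were seen. Promoter windows were found for 11465 of the tested genes, and those shown were chosen after the values were seen. Some members of the lists are not reported here by name. The main fit did not treat library numbers as pairing samples across tissues, and whether they do was not settled.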

Additional observations from a re-analysis of the deposited data

How the results depend on the processing

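The count of genes apart and higher in thymus stayed within 1.5 times of 633 under every alternative tried, from 493 to 804, and leaving out 1 library each gave 517 to 645 higher and 523 to 580 lower. With limma on RPKM the lower count was 371 (log2 of RPKM + 0.1), 231 (RPKM + 1) and 223 (RPKM + 1, no filter). With no 2-fold limit, library size scaling gave 3874 genes higher and 1183 lower against the mean and the same way against each tissue, and the same 3 RPKM fits gave 3886, 3926 and 4032 higher, and 1109 and 1108 lower for the filtered fits. With the 2-fold limit, the lower count in bone was 342, 325, 207 and 193 under library size scaling and the 3 RPKM fits. In skin, with the same limit, the higher count was 353, 335, 295 and 311. The lower count there was 2922 and 2183 under the first pair of these. Distinct list members lower in thymus numbered 76 and 72 in the RPKM + 1 fits without and with unfiltered genes. The non-significant difference of Ly6a changed sign, to a log2 value of 0.02 by library size and 0.05 in the 3 RPKM fits. These scalings moved the median of all genes upward, and the cause of each single change was not tested. Under the replicate block 493 genes were higher and 523 lower, 465 and 464 of them shared with the fit without it. Correlations of same-numbered libraries ran from -0.03 to 0.08, and not every library correlated best with its own number. Such weak correlations cannot show whether the numbers pair the samples. Calls in all 9 fits that left out a library were kept by 430 higher and 416 lower genes. Among lists, the higher counts of basement membrane and collagen VI genes were 10 and 8 under library size scaling, the lower count of small leucine-rich proteoglycans was 2 without thymus 2, the lower count of Hedgehog genes was 2 under library size scaling, and under the replicate block the contractile higher count was 5, the limb and trunk lower count 4 and the lower count of Hox groups 5 to 8 was 2. Genes with 3 reads or fewer in a group have only bounds or counting intervals at this depth.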

Other observations

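Some genes of the higher set were at or near the floor in both other tissues. In 32 of the 633 higher genes bone and skin each held 3 reads or fewer in all 3 libraries together. Such genes passed the filter on low values only through thymus, so this count is descriptive. How many of all genes tested have so few reads there was not counted. Pcdh15, a protocadherin known from hair cells of the ear, had 3334 thymus reads and was at 11.6, 8.83 and 8.77 CPM there, at least 1019-fold higher than in bone and at least 796-fold higher than in skin when each group at 0 is set to 3 reads. The same set held genes of other organs at low levels. Csn2, a milk casein, had 479 thymus reads, Cyp2a5, a liver cytochrome, 541, and Serpina1b, a liver protease inhibitor, 472. Csn2 was at 0.738, 1.77 and 1.76 CPM in the 3 thymus libraries, Cyp2a5 at 0.352, 1.24 and 3.44 CPM and Serpina1b at 1.43, 1.67 and 1 CPM. Aire, the factor by which medullary epithelium expresses genes of other organs, had 184 thymus reads, at 0.94, 0.385 and 0.255 CPM, the sum of thymic epithelial markers being 15.3 to 24.4 CPM. Its part in these values was not tested. In the other direction 59 of the 599 lower genes had 3 reads or fewer in thymus and 41 of them had none. These passed the same filter only through bone or skin.

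Of 17 retinoic acid genes tested 3 were higher and 4 lower in thymus (17.6% and 23.5%, against 4.05% and 3.83% of all genes). Rdh10, which starts the synthesis of retinoic acid, was at 68.7, 55.5 and 47 CPM in thymus, 19.5 ± 2.2 CPM in bone and 18.3 ± 4.47 CPM in skin, and Rarb, a receptor that is itself a target, at 23.4, 26.9 and 16.6 CPM against 10.4 ± 2.07 and 9.11 ± 1.98 CPM. Both were higher in all 3 thymus libraries. Cyp26b1, which degrades retinoic acid, was at 1.17, 2.74 and 1.25 CPM in thymus, 30.8 ± 7.83 CPM in bone and 14.9 ± 7.21 CPM in skin, and Rbp4, the retinol carrier, at 0.804 ± 0.383 CPM against 9.04 ± 1.86 and 7.53 ± 0.673 CPM. Aldh1a3, an enzyme of the synthesis, and Crabp2, a carrier of the acid, were lower, the call of Aldh1a3 being lost under library size scaling and on RPKM. Of 17 genes of the insulin-like growth factor system Pappa2 and Igfbp6 were lower (11.8%), with a list median log2 fold change of -0.93, and the call of Igfbp6 was lost without thymus 2 and that of Pappa2 in the RPKM + 1 fits. Only Igfbp7, a binding protein, was higher, at 2143 ± 238 CPM in thymus, 550.5 ± 7.33 CPM in bone and 334 ± 112 CPM in skin.

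In the chromosomal order of the 15615 tested genes that could be placed, the higher genes formed 64 runs of 2 or more, with 133 genes. The lower genes formed 44 runs, with 96 genes. Untested genes were skipped, so members of a run can lie far apart. Igfbp7 and Lphn3, for example, span 77349329 to 81795730 on chromosome 5. No number of runs to set beside these counts was computed. Runs of 3 higher genes, besides the Hoxa and Col6a runs, included Serpina3g, Serpina3h and Serpina3i on chromosome 12, from 104237796 to 104269365, and Arhgef17, P2ry6 and P2ry2 on chromosome 7. The Serpina3 genes are near-identical copies whose counts may share reads. The start windows of the higher genes had a median observed over expected CpG of 0.59, against 0.66 in the lower genes and 0.74 in all genes tested with a single window, at a GC content of 60.3%, 60.7% and 60.7%.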
